A study of Homo sapiens with 9 samples.

Results

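Keratins are the intermediate filament proteins of epithelial cells. Described here are 9 keratins and 1 keratin-associated protein: KRTAP2-3, KRT4, KRT5, KRT7, KRT8, KRT15, KRT17, KRT18, KRT19 and KRT80. They were picked by symbol from the 16772 genes of the deposited expression table, with the values of all 9 libraries already known. Their levels and differences are therefore a description, without a test. Of the 10 genes 9 had a row, and KRT5 was not analysed here. A level filter was passed by 8 of them, all but KRT17.

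RNA was sequenced from DU145, an established line of prostate carcinoma cells with the genotype WT. The cells were grown for 6 days with DMSO alone, with the compound H93 at 20 µM or with SAHA (vorinostat, an inhibitor of histone deacetylases) at 500 nM. Both compounds were dissolved in DMSO, so all 3 groups received the solvent, and the doses of the compounds differ. The series title presents H93 as directed at UHRF1, a protein needed to maintain DNA methylation, and the design sets it against SAHA and DMSO with 3 libraries in each group. The labels write the dose units as micrometres and nanometres in places, which were read as µM and nM. Nothing in the labels says that the libraries came from separate cultures. A p-value here therefore covers only how far libraries vary within groups, pooled over the 3 groups and adjusted with the spread of other genes. That variation may be technical.

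A keratin filament is built from pairs of 1 acidic type I keratin and 1 basic type II keratin, so a cell that makes filaments needs both types. KRT8 (type II) and KRT18 (type I) are the primary pair of simple, single-layered epithelia, where KRT7 (type II) and KRT19 (type I) are often added. KRT5 and KRT15 are keratins of basal cells, KRT4 of the upper layers of moist squamous epithelia, and KRT17 of skin appendages and wounded epidermis. KRT80 is a further type II keratin. Keratin-associated proteins such as KRTAP2-3 are small cysteine-rich proteins that crosslink keratins in the hair shaft. In the prostate, luminal cells carry KRT8 and KRT18, and basal cells carry KRT5.

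In the GRCh38 annotation of GENCODE release 29 the type II genes and KRT18 lie on chromosome 12, from KRT80 (52168996 to 52192000) and KRT7 (52232520 to 52252186) to KRT4 (52806549 to 52814551), KRT8 (52897187 to 52949954) and KRT18 (52948871 to 52952901). The other type I genes lie on chromosome 17, KRT15 from 41513743 to 41522529, KRT19 from 41523617 to 41528308 and KRT17 from 41619441 to 41624842. KRTAP2-3, a protein-coding gene on the minus strand of chromosome 17, occupies 41059240 to 41060114. Promoter windows of 300 bases (250 before and 50 after the start) came from RefSeq, build GRCh38.p14, which held 4 of the 10 genes. Printed 5′ to 3′ are those of KRTAP2-3 and KRT4, the members with the largest rise and the largest fall against DMSO on the log2(FPKM + 1) scale, and of KRT8, an abundant member that moved little. Capitals mark matches to the motifs searched. All 3 lie on the minus strand, at chr17:41060065-41060364, chr12:52814067-52814366 and chr12:52926420-52926719. Those of KRT4 and KRT8 lie within the GENCODE spans of their genes, so the starts used differ from the GENCODE gene starts. The KRT4 window lies close to the GENCODE start, and the KRT8 window far from it, so the latter describes 1 alternative start.
KRTAP2-3: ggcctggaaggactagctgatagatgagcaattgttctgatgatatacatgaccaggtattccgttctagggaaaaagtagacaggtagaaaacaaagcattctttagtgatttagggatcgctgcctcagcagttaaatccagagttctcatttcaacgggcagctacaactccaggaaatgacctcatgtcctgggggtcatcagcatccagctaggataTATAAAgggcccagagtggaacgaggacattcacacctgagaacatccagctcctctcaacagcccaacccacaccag
KRT4: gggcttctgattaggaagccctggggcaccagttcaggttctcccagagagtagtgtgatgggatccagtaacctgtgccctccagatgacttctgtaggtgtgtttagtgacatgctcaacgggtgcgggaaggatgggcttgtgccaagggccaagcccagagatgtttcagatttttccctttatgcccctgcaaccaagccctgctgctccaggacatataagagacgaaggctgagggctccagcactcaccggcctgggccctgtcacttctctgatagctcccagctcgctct
KRT8: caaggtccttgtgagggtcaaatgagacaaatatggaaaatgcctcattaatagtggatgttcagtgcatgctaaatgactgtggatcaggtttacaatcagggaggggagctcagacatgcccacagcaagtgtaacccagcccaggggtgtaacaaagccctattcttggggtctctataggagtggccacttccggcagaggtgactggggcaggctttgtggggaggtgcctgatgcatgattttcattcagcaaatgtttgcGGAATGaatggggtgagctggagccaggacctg

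The motifs searched on both strands were TGANTCA for AP-1, then GGGCGG for SP1, then TATAAA for the TATA-binding protein and GGAATG for TEAD factors. The KRTAP2-3 window held TATAAA with its first base at position -28 from the start, a motif found in 11.5% of 35116 windows of the same length. The KRT8 window held GGAATG, found in 14.0% of windows. The KRT4 window held none of the 4. TGANTCA (7.71% of all windows) and GGGCGG (45.0%) were in none of the 3 windows. CG dinucleotides, the sites of DNA methylation, numbered 4 in the KRTAP2-3 window, 5 in that of KRT4 and 2 in that of KRT8, against a median of 14 over all windows. These matches and counts describe the windows, that of KRT8 at a start far inside its gene span, and no methylation was measured.

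Levels are in FPKM, a fragment count that the authors scaled for transcript length and sequencing depth, so levels of different genes can be set side by side. The defining epithelial marker EPCAM was at 29.6 to 67.7. The basal cell factor TP63 did not exceed 0.0241. Of 5 leukocyte markers 3 had a row, with sums of 0.577 to 0.606 in DMSO, 0.874 to 1.09 in H93 and 0.541 to 1.13 in SAHA, of which CD14 was at 0.541 to 1.13 and PTPRC did not exceed 0.0179. The summed FPKM of all 9 fibroblast markers was 3.27 to 4.48 in DMSO, 4.53 to 5.62 in H93 and 4.90 to 7.64 in SAHA, and that of 5 endothelial markers did not exceed 0.397. Of the basal list 7 of 8 markers had a row, KRT15 among them, and their sum was 57.0 to 58.6 in DMSO, 78.7 to 80.3 in H93 and 76.4 to 77.1 in SAHA. Most of that sum was ITGA6, at 43.5 to 57.9, while KRT15 was at 2.75 to 8.62 and KRT14 did not exceed 0.0339. The listed markers went both ways. Mean ITGA6 was 44.0 in DMSO, 57.2 in H93 and 56.4 in SAHA, and mean ITGB4 was 8.54, 6.37 and 6.16. The part of these markers in the keratin values was not tested. In bulk RNA fewer cells of a type and less RNA per cell cannot be told apart. Summed FPKM was 348656 to 355741 per library, with 14910 to 15295 genes listed above 0, and the depth in reads is unknown.

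**Figure D1:**
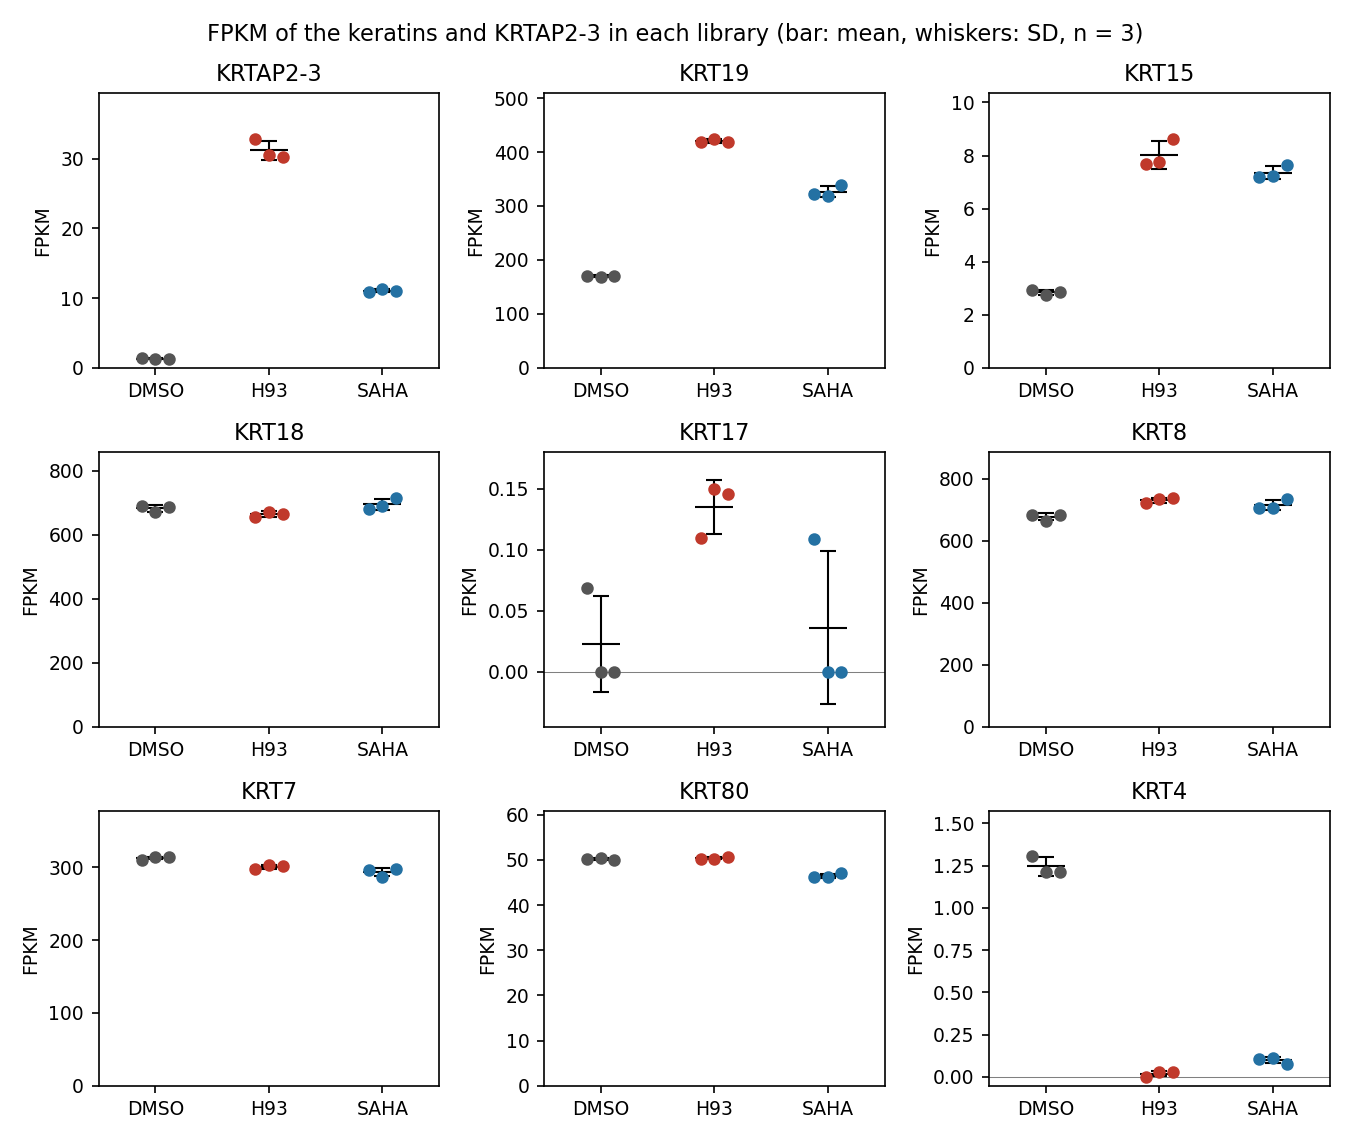
FPKM of the 9 genes with a row in each of the 9 libraries, 1 panel a gene with its own vertical axis, with points for libraries, horizontal bars for group means and whiskers for SD (n = 3). KRTAP2-3 runs from 1.19 in a DMSO library to 32.8 in an H93 library, KRT4 is high in DMSO alone, and KRT18, KRT8, KRT7 and KRT80 differ little between groups.

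KRTAP2-3 had the largest rise on the log2(FPKM + 1) scale among the 8 members past the level filter, in each of the 3 comparisons. Its FPKM was 1.36, 1.25 and 1.19 in the DMSO libraries, 32.8, 30.5 and 30.3 in the H93 libraries and 10.9, 11.2 and 11.1 in the SAHA libraries. The 3 groups did not overlap, with DMSO lowest and H93 highest. The group means were 1.27 ± 0.0888 for DMSO, 31.2 ± 1.39 for H93 and 11.1 ± 0.188 for SAHA (SD, n = 3 each). H93 thus stood at 24.6 times and SAHA at 8.72 times the DMSO mean, and H93 at 2.82 times the SAHA mean. Differences below are of log2(FPKM + 1), a scale that understates the change of low genes. On it KRTAP2-3 was 3.83 higher with H93 than DMSO, 2.41 higher with SAHA than DMSO and 1.42 higher with H93 than SAHA (SE 0.0436 each). With a pseudocount of 0.1 these were 4.52, 3.03 and 1.49, and with 5 they were 2.53, 1.36 and 1.17. By mean level it ranked 10928 in DMSO, 2298 in H93 and 5369 in SAHA among all genes of the table.

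Genes around KRTAP2-3 stayed near 0. GENCODE lists 39 other genes within 200 kb of it, 32 of them with a KRTAP symbol, a few of these being pseudogenes. Of the 16 with a row 0 passed the level filter, an FPKM of 1 or more in 3 or more of the libraries. All 19 other KRTAP genes of the table were under 1 in every library. KRTAP4-9 was listed at 0 in the DMSO libraries, at 0.353, 0.826 and 0.504 in H93 and at 0.150, 0 and 0 in SAHA. At such levels no difference was tested.

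Reads of KRTAP2-3 may be shared with close copies, so its value is uncertain in that respect. Its GENCODE transcript of 875 bases aligned with that of KRTAP2-4 over 428 columns at 99.5% identity, with KRTAP2-1 over 446 at 98.9% and with KRTAP2-2 over 416 at 95.7%. The copies were low in the table, at most 0.223 for KRTAP2-4, 0.0763 for KRTAP2-1 and 0.0758 for KRTAP2-2.

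Among the type I keratins, KRT19 was higher with both compounds from a level that was already high. It stood at 169.9, 168 and 171 in DMSO, at 418, 424 and 419 in H93 and at 322, 318 and 339 in SAHA. The groups were apart from each other, in the order seen for KRTAP2-3. The means were 169 ± 1.59, 420.4 ± 2.95 and 326 ± 10.8 (SD, n = 3), so H93 was at 2.48 times and SAHA at 1.93 times DMSO. The log2 difference was 1.31 for H93 and 0.94 for SAHA against DMSO, and 0.36 between the compounds (SE 0.0242 each).

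KRT15, a type I keratin of basal cells and the neighbour of KRT19 on chromosome 17, was higher as well, from a low level. Its FPKM was 2.91, 2.75 and 2.84 in DMSO, 7.69, 7.75 and 8.62 in H93 and 7.20, 7.22 and 7.66 in SAHA. Both treated groups lay above DMSO, and the lowest H93 library lay only just above the highest SAHA library. The means were 2.84 ± 0.0814, 8.02 ± 0.517 and 7.36 ± 0.259, with log2 differences from DMSO of 1.23 for H93 and 1.12 for SAHA and of 0.11 between the compounds (SE 0.0491 each).

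KRT18, the type I partner of KRT8, had the highest mean of the members in DMSO and stayed near it. Its values were 690.2, 670.4 and 686 in DMSO, 653, 671 and 666 in H93 and 679.8, 690.0 and 714 in SAHA. The DMSO libraries overlapped both treated groups, and H93 lay below SAHA. The log2 difference was -0.04 for H93 and 0.03 for SAHA against DMSO, and -0.07 between the compounds (SE 0.0229 each). Under quantile normalization the last was 0.01 and that of SAHA against DMSO -0.02, both of the other sign. The call between the compounds was lost in 12 of 19 alternatives, beside that reversal.

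KRT17 stayed close to 0. It was listed at 0.0684, 0 and 0 in DMSO, at 0.110, 0.150 and 0.146 in H93 and at 0.109, 0 and 0 in SAHA. The H93 libraries held the highest values, the lowest of them barely above the highest SAHA library.

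Among the type II keratins, KRT8 was slightly higher with both compounds. It stood at 684, 664 and 681 in DMSO, at 722, 733 and 737 in H93 and at 704, 705 and 734 in SAHA. Both treated groups lay above DMSO and overlapped each other. The log2 difference from DMSO was 0.11 for H93 and 0.08 for SAHA (SE 0.0223 each), the latter 0.03 and no longer called under quantile normalization. KRT8 was above KRT18 in every H93 and SAHA library and below it in every DMSO library.

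In GENCODE KRT8 and KRT18 share 525 exonic bases on opposite strands, 16.3% of those of KRT18. The library kit marks strand, but whether counting used it is not given in the sources used here. GENCODE also lists 50 KRT8, 68 KRT18, 8 KRT17 and 5 KRT19 pseudogenes, of which 0 have a row. The levels of these genes are thus uncertain where reads fit several copies.

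KRT7, a type II keratin of glands and ducts, was slightly lower with both compounds. Its values were 311, 314 and 314 in DMSO, 297, 303 and 302 in H93 and 296, 287 and 297 in SAHA. Both treated groups lay below DMSO. The log2 differences were -0.06 for H93 and -0.09 for SAHA (SE 0.0205 each). The H93 value no longer passed the adjusted p used for the counts below without DMSO replicate 2, DMSO replicate 3 or H93 replicate 1, where it was -0.05, -0.05 and -0.05, close to its value with all libraries.

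KRT80 was lower with SAHA alone. Its means were 50.2 ± 0.249 in DMSO, 50.4 ± 0.203 in H93 and 46.5 ± 0.479 in SAHA. DMSO and H93 libraries overlapped, and the SAHA libraries, at 46.2, 46.2 and 47.0, lay below both. SAHA differed from DMSO by -0.11 and from H93 by the same size on the log2 scale (SE 0.0222 each). The difference of H93 from DMSO was 0.00.

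KRT4, a keratin of upper squamous layers, went the other way from KRT15 and KRT19. It was at 1.31, 1.21 and 1.21 in DMSO, at 0, 0.0265 and 0.0259 in H93 and at 0.103, 0.111 and 0.0772 in SAHA. The groups did not overlap, and H93 was lowest. Both treated groups lay near 0, and their difference on the log2(FPKM + 1) scale, -0.11, was not called. The mean was 1.24 ± 0.0547 in DMSO, 0.0175 ± 0.0151 in H93 and 0.0968 ± 0.0175 in SAHA (SD, n = 3). The log2 differences from DMSO were -1.14 for H93 and -1.03 for SAHA (SE 0.0598 each). With a pseudocount of 0.1 they were -3.52 and -2.78, and with 5 they were -0.32 and -0.29. KRT4 passed the level filter only through the DMSO libraries, so it had to differ.

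**Figure D2:**
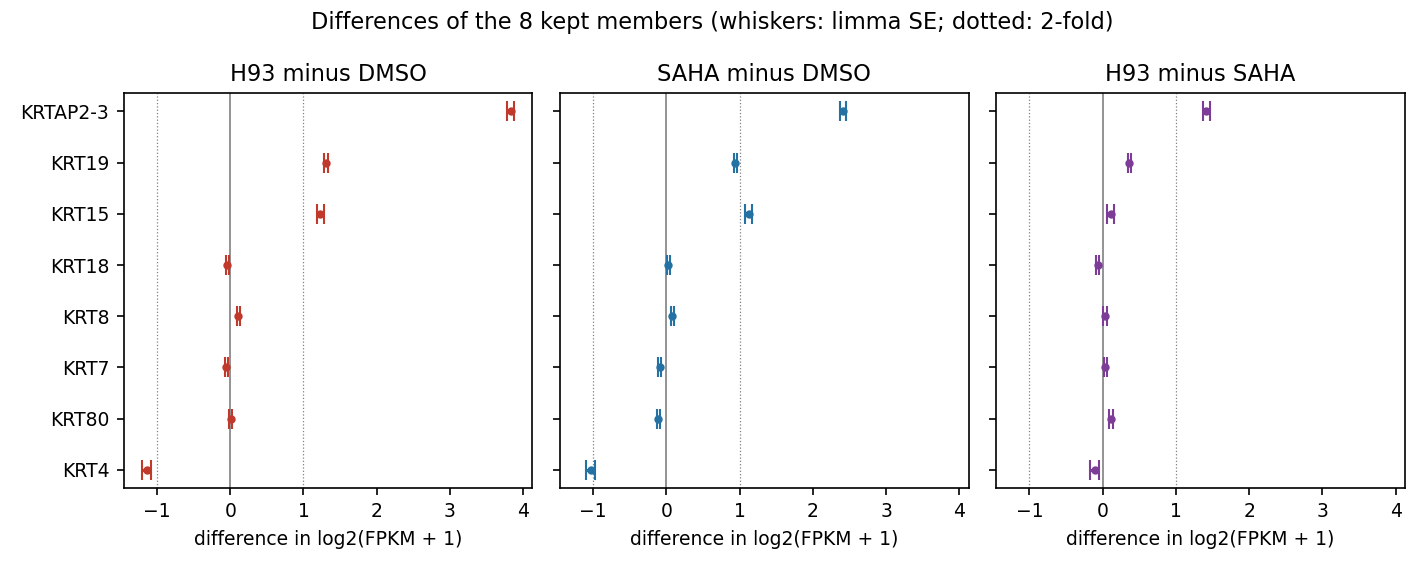
Differences in log2(FPKM + 1) of the 8 genes past the level filter, 1 panel a comparison, with limma standard errors as whiskers and dotted lines at a difference of 1 in either direction. KRTAP2-3 lies farthest to the right in each panel (3.83, 2.41 and 1.42), KRT19 and KRT15 follow in the comparisons with DMSO, and KRT4 lies at -1.14 and -1.03 there.

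Counts of members are given beside the share of all 11525 genes in the fit that passed the same rule, and nothing is read from them, since the members were chosen with these contrasts known. For H93 against DMSO 6 of 8 passed limma at an adjusted p under 0.05 (Benjamini-Hochberg), against 69.8% of all genes. Of these 4 were higher (34.9% of all genes) and 2 lower (35%). A 2-fold call, which also asks for a log2 difference of 1 or more in size, was reached by 4 (2.28% of all genes): KRTAP2-3, KRT19 and KRT15 higher (1.47%) and KRT4 lower (0.816%). The libraries of the 2 groups did not overlap for 6 members, against 73.2% of all genes.

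For SAHA against DMSO 7 of 8 passed, against 58.8% of all genes, 4 of them higher (27.4%) and 3 lower (31.4%). The 2-fold call was reached by 3 (1.12% of all genes), KRTAP2-3 and KRT15 higher (0.746%) and KRT4 lower (0.373%). Groups did not overlap for 7, against 64.1% of all genes. Both comparisons use the same 3 DMSO libraries.

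For H93 against SAHA 4 of 8 passed, against 31.5% of all genes: KRTAP2-3, KRT19 and KRT80 higher with H93 (17.6%) and KRT18 lower (13.9%). Groups did not overlap for 7, against 44.4% of all genes. The 2-fold call was reached by 2 genes of the fit (0.0174%), KRTAP2-3 higher and 1 gene lower (0.00868% each). The latter, SMIM11A, named after its values were seen, stood at 1.32, 0.947 and 0.594 in H93 and at 7.59, 0.776 and 12.5 in SAHA, with 1 SAHA library inside the H93 range.

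The order of the levels changed between groups. In DMSO it ran KRT18, KRT8, KRT7, KRT19, KRT80, KRT15, KRTAP2-3, KRT4 and KRT17. Of these neighbours KRT18 (682 ± 10.5) and KRT8 (676 ± 11.1) lay within their spread, as did KRTAP2-3 and KRT4. In H93 it ran KRT8, KRT18, KRT19, KRT7, KRT80, KRTAP2-3, KRT15, KRT17 and KRT4, with KRT19 (420.4 ± 2.95) above KRT7 (301 ± 2.95). SAHA had the H93 order down to KRT15, then KRT4 and KRT17, and there KRT8 (714 ± 16.7) and KRT18 (694 ± 17.3) overlapped.

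The balance of the keratin types moved with KRT19. Summed over 17 type I rows, FPKM was 869.8 ± 11.7 in DMSO, 1113 ± 11.1 in H93 and 1046 ± 28.3 in SAHA. Summed over 11 type II rows it was 1043 ± 10.4, 1085 ± 10.9 and 1058 ± 20.9. The mean type I sum was 243 higher in H93 than in DMSO, and KRT19 alone was 251 higher. The ratio of type I to type II was 0.834 ± 0.00339 in DMSO, 1.03 ± 0.00601 in H93 and 0.989 ± 0.0101 in SAHA. KRT19 made up 8.85% of all keratin FPKM in DMSO, 19.1% in H93 and 15.5% in SAHA.

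Ratios of partners within a library do not depend on its scaling. That of KRT8 to KRT18 was 0.990 to 0.993 over the DMSO libraries, 1.09 to 1.11 in H93 and 1.02 to 1.04 in SAHA. That of KRT19 to KRT7 was 0.534 to 0.547 in DMSO, 1.39 to 1.41 in H93 and 1.09 to 1.14 in SAHA. In both ratios the groups did not overlap, and H93 was farthest from DMSO.

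**Figure D3:**
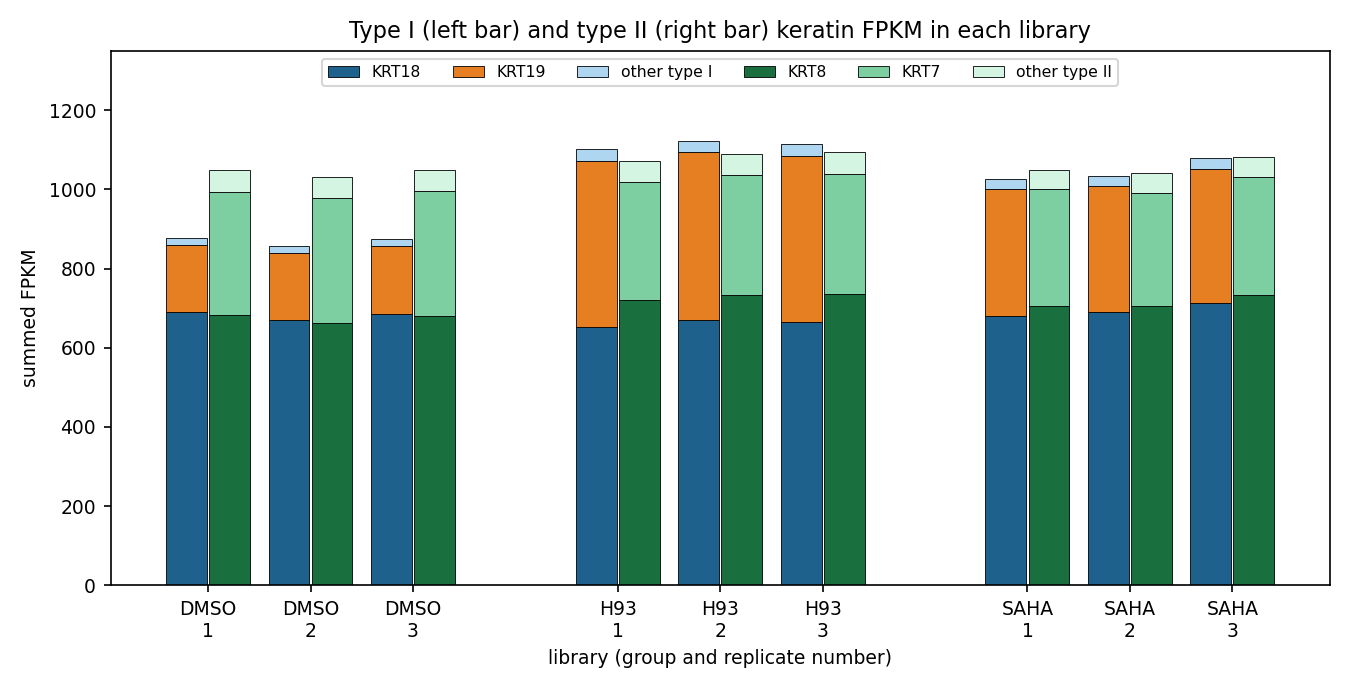
Summed FPKM of type I keratins (left bar) and type II keratins (right bar) in each library, stacked by gene. The KRT19 segment has a mean of 169 in DMSO, 420.4 in H93 and 326 in SAHA, and the type I bar is the taller one in the H93 libraries.

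Few keratins outside the named set passed the level filter. Of 29 keratin rows 20, the member KRT17 among them, stayed under an FPKM of 1 in every library, and 2 genes that were not members passed the filter. KRT10, the type I keratin of upper epidermal layers, rose from 15.1 ± 0.344 in DMSO to 20.3 ± 0.561 with H93 and 17.1 ± 0.684 with SAHA (limma with Benjamini-Hochberg, adjusted p = 6.70e-07 and 0.00130, and 7.08e-04 between the compounds). KRT81, a type II hair keratin, rose from 2.54 ± 0.280 to 3.13 ± 0.0539 and 3.10 ± 0.114 (limma, adjusted p = 0.00476 and 0.00818, and 0.907 between the compounds). Of all genes in the fit 34.9% rose with H93 and 27.4% with SAHA. The keratin lists were chosen with earlier results of these data known, so these adjusted p are descriptions. KRT14, the usual partner of KRT5, did not exceed 0.0339.

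Genes that anchor keratins at desmosomes, the junctions between cells, went both ways. Of 14 desmosome and plakin genes in the fit 5 rose and 7 fell with H93, and 5 rose and 5 fell with SAHA. The list medians were -0.06 and -0.02, beside 0.00 and -0.01 for all genes in the fit. Of all genes 4017 rose (34.9%) and 4033 fell (35%) with H93, and 3159 rose (27.4%) and 3621 fell (31.4%) with SAHA. The same shares and medians of all genes stand beside each list below. Unless marked, genes named from this list and those below had the largest H93 differences from DMSO in their list. Their adjusted p, taken over all genes in the fit, describes genes picked for their size and does not test a list. PERP, a desmosome membrane protein, rose from 27.3 ± 0.163 in DMSO to 58.9 ± 0.612 with H93 and 52.3 ± 0.977 with SAHA (limma with Benjamini-Hochberg, adjusted p = 3.86e-12 and 3.52e-11). PKP2, a plakophilin of the desmosome plaque, rose from 3.14 ± 0.269 to 5.66 ± 0.194 and 4.81 ± 0.334. PKP3, another plakophilin, fell from 22.3 ± 0.789 to 9.38 ± 0.439 and 12.1 ± 0.752 (limma, adjusted p = 6.74e-10 and 2.82e-08), and periplakin PPL fell from 4.70 ± 0.0978 to 2.07 ± 0.118 and 2.72 ± 0.0571. All 4 also differed between the compounds (limma, adjusted p = 3.94e-04 to 0.0243), with H93 farther from DMSO. For PKP2 that call was lost without H93 replicate 1 or 3, without SAHA replicate 2 or 3 (limma, adjusted p = 0.0582 to 0.0873) and with no filter on low values.

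Hemidesmosomes tie keratins to the basement membrane through integrin and plectin. Of 9 such genes 6 rose and 2 fell with each compound, with list medians of 0.28 for H93 and 0.22 for SAHA. Genes called in either direction made up 69.8% of all genes in the fit for H93 and 58.8% for SAHA. DST and PLEC are also in the desmosome and plakin list. Of the integrin genes, named after their values were seen, ITGA6 rose and ITGB4 fell with both compounds. LAMB3, a chain of the laminin in the anchoring matrix, rose from 146 ± 1.36 to 314 ± 2.95 and 249 ± 4.47. COL17A1, a transmembrane collagen, rose from 1.60 ± 0.133 to 4.36 ± 0.165 and 4.04 ± 0.126 (limma with Benjamini-Hochberg, adjusted p = 3.87e-09 and 1.86e-08). LAMA3, the alpha chain of that laminin, fell from 10.9 ± 0.447 to 8.18 ± 0.117 and 9.14 ± 0.00349.

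Other intermediate filament genes were also split. Of 11 in the fit 5 rose and 4 fell with H93, and 7 rose and 4 fell with SAHA, with medians of 0.02 and 0.21. INA and PRPH, neuronal filament genes, rose, INA from 5.84 ± 0.0360 to 11.3 ± 0.535 and 13.01 ± 0.535 and PRPH from 1.00 ± 0.149 to 2.31 ± 0.330 and 1.99 ± 0.476. LMNB1, a nuclear lamin, fell from 59.8 ± 2.54 to 34.9 ± 0.127 and 43.1 ± 0.620, and synemin SYNM fell from 10.4 ± 0.595 to 6.07 ± 0.314 and 7.72 ± 0.312. VIM, the filament protein of mesenchymal cells, named after its values were seen, rose from 537 ± 6.37 to 797 ± 6.12 and 809 ± 13.5 (limma with Benjamini-Hochberg, adjusted p = 1.85e-10 and 2.33e-10). Its mean was below that of KRT8 in DMSO and above it in both treated groups.

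Of 33 cornified envelope and squamous genes with a row, 9 passed the level filter, of which 4 rose and 5 fell with H93 and 5 rose and 4 fell with SAHA, with medians of -0.06 and 0.12. SCEL (sciellin), an envelope precursor, rose from 6.61 ± 0.419 to 14.4 ± 0.361 and 13.8 ± 1.66, and the tight junction gene CLDN1 from 102 ± 2.22 to 148 ± 1.97 and 143 ± 1.02. CLDN4, another tight junction gene, fell from 3.67 ± 0.470 to 0.891 ± 0.121 and 2.04 ± 0.266, and differed between the compounds (limma with Benjamini-Hochberg, adjusted p = 1.88e-04). CNFN (cornifelin) fell from 6.94 ± 0.769 to 4.98 ± 0.748 and 4.90 ± 0.226.

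Among 20 transcription factors of keratinocytes and epithelia 5 rose and 10 fell with H93, and 4 rose and 8 fell with SAHA, with medians of -0.08 and -0.08. KLF4, a factor of squamous differentiation, rose from 4.56 ± 0.392 to 8.28 ± 0.196 and 6.47 ± 0.669, and SOX9 rose from 8.80 ± 0.131 to 13.7 ± 0.529 and 11.3 ± 0.353. ELF3, an epithelial ETS factor, fell from 12.6 ± 0.586 to 6.15 ± 0.398 and 7.42 ± 0.383, and the Notch target HES1 fell from 2.11 ± 0.275 to 0.921 ± 0.177 and 0.924 ± 0.238.

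Of 24 genes listed under keratin binding and turnover 6 rose and 10 fell with H93, and 4 rose and 7 fell with SAHA. The list medians were -0.04 and 0.00. The list also counts KRTCAP2 and KRTCAP3, genes of keratinocyte-associated proteins, for which no role in keratin binding or turnover is shown here. FAM83H, which organises keratin filaments, fell from 33.1 ± 0.831 to 17.8 ± 0.279 and 20.4 ± 0.145 (limma with Benjamini-Hochberg, adjusted p = 1.42e-10 and 2.22e-09). TCHP (trichoplein), a keratin-binding protein, fell from 8.76 ± 0.476 to 5.61 ± 0.277 and 7.01 ± 0.349. KRTCAP3 fell from 3.50 ± 0.623 to 1.57 ± 0.293 and 1.80 ± 0.215. The ubiquitin ligase gene TRIM21 rose from 3.59 ± 0.550 to 5.18 ± 0.922 and 4.80 ± 0.112, and its SAHA call was lost without DMSO replicate 1 (limma, adjusted p = 0.0507).

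**Figure D4:**
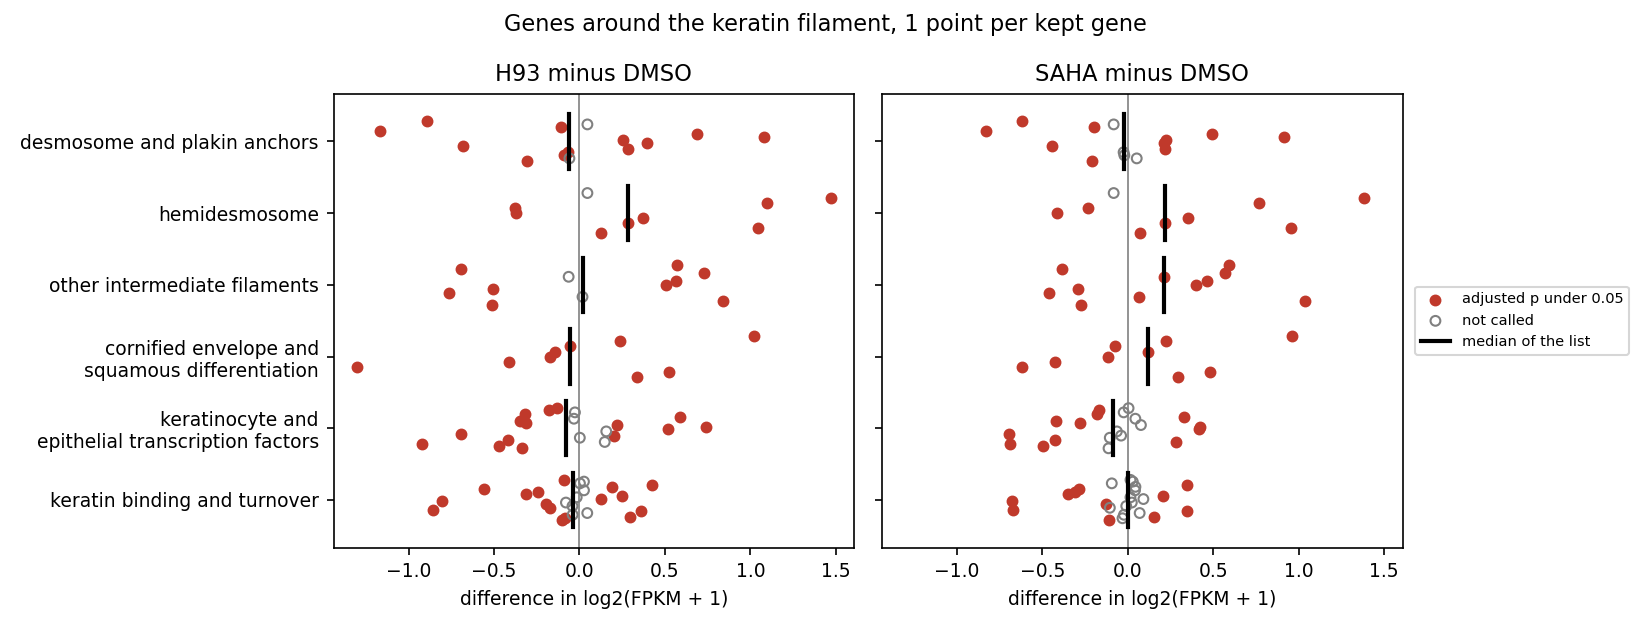
Differences in log2(FPKM + 1) of genes that anchor, accompany or regulate keratins, 1 point a gene past the level filter and 1 row a list, for H93 and SAHA against the same DMSO libraries, filled where the limma adjusted p was under 0.05, with the list median as a black bar. The hemidesmosome medians lie at 0.28 and 0.22, and the desmosome genes spread on both sides of 0.

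The genes most like a member were sought by Pearson's r of log2(FPKM + 1) over the 9 libraries, among 270 genes whose group means spanned 1 or more on that scale. The libraries share 3 treatment groups, so these r are descriptions with no test. For KRTAP2-3 the highest were CITED2 (0.999), a transcriptional cofactor, the chemokine CXCL8 (0.998), the kinase SGK1 (0.997), ANKRD1 (0.996) and DDIT4L (0.996). ANKRD1 had means of 79.1 in DMSO, 516 in H93 and 295 in SAHA. For KRT19 they were LAMB3 (0.999), the cytokine IL18 (0.998), ANKRD1 (0.998), GPR4 (0.998) and NPC2 (0.998). GPR4 passed the level filter only through the H93 libraries, at 1.26, 1.37 and 1.25, so a group difference was favoured in advance. ANKRD1 was thus among the 5 closest genes for both.

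Among the closest for KRT15 were DUSP5 (0.998), a phosphatase of MAP kinases, HLA-DRB1 (0.998), SLAMF7 (0.997) and IL24 (0.997). DUSP5 had means of 74.3 in DMSO, 181 in H93 and 165 in SAHA. For KRT4 they were LPCAT1 (0.999), SCARB1 (0.998), a lipoprotein receptor, NRP1 (0.998), NNMT (0.997) and ADGRG2 (0.997). ADGRG2 had means of 7.32, 2.60 and 3.01.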

How the data were processed

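The values are FPKM per gene and library in 1 table that the authors deposited. Trimmomatic 0.36, HISAT2, Cufflinks and build GRCh38.p13 appear in the submitters' processing notes, with no role stated. Which annotation was used, and whether counting was strand-aware, is not given in the sources used here. The labels' protocols state TRIzol extraction and a TruSeq stranded mRNA kit. Sample titles gave groups and replicate numbers. All 9 libraries were fitted together with limma 3.58.1 (R 4.3.3) on log2(FPKM + 1), with group means, trended empirical Bayes, two-sided tests and Benjamini-Hochberg adjustment over the 11525 genes with an FPKM of 1 or more in 3 or more libraries. The fit was also run on simulated data with few changed genes and independent noise. That setting is unlike these data, so the run checks the code and not the calls made here. Alternatives changed the pseudocount, filter, scaling, block and libraries. Members and gene lists were chosen with earlier results of these data known. Named genes were the members, up to 4 genes per list with the largest H93 difference from DMSO, and the 5 genes most similar to KRTAP2-3 and to each member with a 2-fold call; exceptions are marked, and some genes under the rule are not reported here. Positions are from GENCODE release 29, and tables and alignments used Python 3.11.15, pandas 2.3.3 and Biopython 1.88.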

Additional observations from a re-analysis of the deposited data

How the results depend on the processing

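Replicate numbers did not pair the libraries: same-numbered libraries had correlations of deviations of -0.0975 to 0.0355. With the replicate block, limma called 7986 genes for H93 against DMSO, 6649 for SAHA against DMSO and 3426 for H93 against SAHA (8050, 6780 and 3629 without it). The 2-fold counts moved most. For H93 against DMSO, 263 became 156 at a mean FPKM of at least 5, 540 with a pseudocount of 0.1 and 74 with 5, and for SAHA against DMSO 129 became 78, 292 and 30. With a pseudocount of 5 the members at 2-fold numbered 2 for H93 and 1 for SAHA, against 4 and 3. Between the compounds, 2 became 8 with a pseudocount of 0.1 and 1 with 5, with no filter, with a mean of at least 5, with robust estimation and with only the 6 libraries, and leaving out single libraries gave 1 to 3. Without 1 DMSO library KRT4 falls under the level filter. The cause of the other moves was not tested. Of 1734 alternative values for single genes 5 changed sign or went to 0, none of them called under that alternative: KRT80 for H93 against DMSO (-0.00310 under median-ratio rescaling and -0.00327 under quantile normalization), and under quantile normalization KRT18 for H93 against SAHA (0.00980) and SAHA against DMSO (-0.0196) and, with no difference left, KRT4 for H93 against SAHA (0). KRT18 between the compounds lost its call in 12 further alternatives. FPKM holds no read counts, so the precision of genes near 0, KRT4 and KRT17 among them, cannot be given.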
